A study of Mus musculus with 12 samples.

Results

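The genes described here are 9 enzymes and scaffold proteins of base excision repair, read from 12 RNAseq libraries of mouse brain. They are Polb, Ogg1, Neil1, Neil2, Apex1, Xrcc1, Lig3, Parp1 and Fen1, and all 9 symbols were present among the 23282 gene rows of every library. The set was assembled after results of these data were known. Polb and Parp1 were chosen by their lower counts in post-symptomatic HD brain, and the question asked of the other 7 was whether that difference was shared by the pathway. For Polb and Parp1, differences between genotypes and ages are therefore descriptions without a test. The mice were HD (R6/2) animals, whose transgene encodes the amino-terminal end of human huntingtin with a lengthened CAG tract, and WT littermates. HD mice were sampled at 8 weeks, before symptoms, and at 13 weeks, after symptom onset, with 2 libraries of striatum and 2 of cortex at each age. WT littermates of both ages contributed 1 library of striatum and 1 of cortex per age. The labels name no drug treatment. They also leave unstated which libraries came from the same mouse, so p-values measure the spread between these libraries only. In comparisons with WT, the spread between WT animals was not measured within an age and region.

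Base excision repair removes small base lesions, such as oxidized guanine, and repairs single-strand breaks. A glycosylase (Ogg1, Neil1 or Neil2) cuts out the damaged base, the endonuclease Apex1 nicks the backbone at the empty site, and DNA polymerase beta (Polb) fills the gap and trims the remaining sugar. Parp1 senses the break, Xrcc1 is the scaffold that gathers the enzymes, Lig3 seals the nick, and Fen1 removes the displaced flap when a longer patch is synthesized. In neurons, which do not divide, this pathway is a main route for repair of oxidative DNA damage, and OGG1 has been studied in HD as a factor in somatic expansion of the CAG repeat.

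Reads from the 3′ ends of transcripts were counted per gene, and total counts lay between 8814386 and 12091201 per library. Rn45s, the ribosomal RNA precursor, took 10.5% to 15.2% of the counts of HD libraries and 4.32% to 5.62% of those of WT libraries. Levels are given as CPM, counts scaled to library size with edgeR's TMM factors. The regions matched their labels: the summed level of 10 markers of striatal projection neurons was 1456 to 8365 CPM in striatum and 153 to 455 CPM in cortex. Of these markers only Drd2 was nearly absent, at 0 in 9 of the 12 libraries. The second library of pre-symptomatic HD striatum stood apart. Its striatal markers summed to 2533 CPM against 7847 CPM in the other library of its group, and its 8 oligodendrocyte markers to 21020 CPM against 3414 CPM. Member values between HD ages over both regions, except Neil2, are therefore also given without the second library, as are some in other comparisons. Marker counts, counts of non-overlapping groups, correlations and most values of other pathway genes are given only with it. By Xist, replicate 1 of every HD group was male and replicate 2 female, whereas both WT libraries of 13 weeks were female and both of 8 weeks male. Age and sex cannot be told apart in WT mice.

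All 9 genes are protein-coding in the GENCODE M21 annotation of GRCm38. Polb occupies chr8:22628126-22653435 (minus strand) and Parp1 chr1:180568924-180601254 (plus strand). Of the glycosylases, Ogg1 occupies chr6:113326972-113335068 (plus strand), Neil1 chr9:57142800-57148305 (minus strand) and Neil2 chr14:63182443-63193856 (minus strand). Apex1 occupies chr14:50924968-50927139, Xrcc1 chr7:24546289-24573440 and Lig3 chr11:82781108-82804274, all on the plus strand, and Fen1 chr19:10199132-10204169 on the minus strand. At their 3′ ends, where this kit reads, 4 of the 9 share exon sequence with a gene on the opposite strand. Camk1 shares 232 bp with Ogg1, Rffl 1826 bp with Lig3, and Pip4p1, listed in the files as Tmem55b, 877 bp with Apex1. Fen1 shares 1909 bp with the antisense gene Gm10143, which has no row in the files. How strand was used in counting was not given in the sources used here, so reads of these pairs cannot be told apart from the counts. The 3′ ends of Polb and Parp1 are free of such overlap. Away from the 3′ ends, Tmem258 shares 130 bp of exon with Fen1, Gm26909 45 bp with Polb and Mir6904 7 bp with Parp1.

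Promoter windows of 300 bases around the RefSeq transcription start were found for 7 of the 9 genes (GRCm38.p6). Parp1 and Apex1 are shown, Parp1 because it was lower alongside Polb and Apex1 because it had at least 205 counts in every library and passed the test in none of the comparisons. Both lie on the plus strand, Parp1 at chr1:180568641-180568940 and Apex1 at chr14:50924699-50924998, and capitals mark the GC box GGGCGG on either strand.
Parp1: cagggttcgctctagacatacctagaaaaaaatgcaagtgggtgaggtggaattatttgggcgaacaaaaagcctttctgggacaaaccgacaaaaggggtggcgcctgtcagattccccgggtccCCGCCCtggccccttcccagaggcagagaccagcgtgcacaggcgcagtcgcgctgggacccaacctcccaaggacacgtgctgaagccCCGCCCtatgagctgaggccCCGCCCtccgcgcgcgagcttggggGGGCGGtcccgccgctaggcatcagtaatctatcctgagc
Apex1: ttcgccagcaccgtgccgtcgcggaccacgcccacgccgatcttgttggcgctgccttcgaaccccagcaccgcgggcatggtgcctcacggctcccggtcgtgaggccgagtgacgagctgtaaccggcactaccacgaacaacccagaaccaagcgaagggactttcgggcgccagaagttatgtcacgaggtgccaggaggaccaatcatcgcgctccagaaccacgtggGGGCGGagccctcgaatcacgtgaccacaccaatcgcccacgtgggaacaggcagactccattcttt
The Parp1 window held 4 GC boxes and the Apex1 window 1, and their GC content was 62.0% and 63.3%. A GC box was present in 35.7% of 32851 promoters of the same length. TGACG, the core of the cAMP response element, occurred in the Apex1 window and not in that of Parp1, and in 20.8% of all promoters. CCAAT had 2 matches in the Apex1 window and 0 in that of Parp1, against 37.4% of all promoters with a match. The full palindrome of the cAMP response element, present in 1.79% of all promoters, was in none of the windows of the 7 genes. These matches are descriptions of the sequence, and the Apex1 window also covers the annotated start of Osgep, a gene on the opposite strand, at 50924893.

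Polb, the gap-filling polymerase, was lower after symptom onset in both regions of HD brain. In post-symptomatic HD striatum its level was 24.0 and 22.9 CPM (257 and 214 counts), and in post-symptomatic HD cortex 25.0 and 26.2 CPM. In pre-symptomatic HD mice it was 47.0 and 49.7 CPM in striatum and 56.7 and 45.7 CPM in cortex. WT striatum had 55.6 CPM at 13 weeks and 50.1 CPM at 8 weeks, and WT cortex 56.0 and 64.9 CPM. All 4 post-symptomatic HD libraries thus lay below all 8 others, with a gap between 26.2 and 45.7 CPM. Ordered by mean, the groups ran from 8-week WT cortex (64.9 CPM), through 13-week WT cortex (56.0 CPM), 13-week WT striatum (55.6 CPM), pre-symptomatic HD cortex (51.2 ± 7.77 CPM, SD, n = 2), 8-week WT striatum (50.1 CPM) and pre-symptomatic HD striatum (48.4 ± 1.96 CPM) to post-symptomatic HD cortex (25.6 ± 0.865 CPM) and striatum (23.4 ± 0.759 CPM). The range of pre-symptomatic HD cortex spanned the neighbours above and below it except the highest group, so the order among these is not set by the data. WT groups have 1 library and no spread of their own.

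Post-symptomatic HD striatum held 48.4% of the Polb level of pre-symptomatic HD striatum and 42.1% of that of WT striatum of the same age. In cortex the corresponding shares were 50.1% and 45.8%. In the fit of striatum and cortex together, the log2 fold change of Polb was -1.01 after against before onset (SE 0.13), with -1.01 in striatum and -1.01 in cortex. Against WT it was -1.19 at 13 weeks (SE 0.14) and -0.20 at 8 weeks (SE 0.14). Between the 2 ages of WT it was -0.037 (SE 0.17). Without the second library of pre-symptomatic HD striatum, the value after against before onset was -0.99. Polb was chosen for its low level in post-symptomatic HD brain. All these contrasts, including those at 8 weeks and between WT ages, are given as description without a test.

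Parp1, the sensor of strand breaks, was also lower after onset, with a smaller difference. It was at 40.2 and 38.9 CPM in post-symptomatic HD striatum, at 52.9 and 65.4 CPM in pre-symptomatic HD striatum, and at 51.8 and 49.2 CPM in WT striatum of 13 and 8 weeks. In cortex it was at 39.4 and 41.4 CPM after onset, at 74.0 and 58.8 CPM before onset, and at 56.0 and 47.3 CPM in WT mice of 13 and 8 weeks. The 4 post-symptomatic HD libraries again lay below the other 8. Unlike Polb, Parp1 in pre-symptomatic HD mice lay above WT of the same age in each region, at 120% of the WT level in striatum and 140% in cortex. The log2 fold change was -0.64 after against before onset (SE 0.13), -0.43 against WT at 13 weeks (SE 0.15) and 0.38 against WT at 8 weeks (SE 0.15). Without the library that stood apart, the value after against before onset was -0.59. Against WT of 13 weeks, the post-symptomatic level of Parp1 was 76.4% in striatum and 72.1% in cortex.

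Summed markers of neurons, each list in its own region, and of astrocytes in both regions were also lowest in post-symptomatic HD libraries. The 10 striatal markers summed to 1456 and 1548 CPM in post-symptomatic HD striatum, against 2533 to 8365 CPM in the other 4 striatal libraries. Within pre-symptomatic HD striatum the sums were 7847 and 2533 CPM, the latter in the library that stood apart. Polb was at 47.0 and 49.7 CPM in the same libraries and Parp1 at 52.9 and 65.4 CPM. The 8 markers of cortical excitatory neurons summed to 1112 and 1201 CPM in post-symptomatic HD cortex, against 1669 to 1975 CPM in the other 4 cortical libraries. The 7 astrocyte markers summed to 2319 and 2692 CPM in post-symptomatic HD striatum, against 3135 to 3973 CPM in the other striatal libraries, and to 2827 and 3043 CPM in post-symptomatic HD cortex, against 3818 to 5314 CPM. After against before onset in the fit of both regions, 4 of the 9 striatal markers tested were lower in HD mice, beside 631 of 13944 genes. None of the 8 cortical markers passed the test (edgeR quasi-likelihood test, Benjamini-Hochberg adjusted). Of the 7 astrocyte markers 1 was lower, with a list median of -0.52, and of the 8 oligodendrocyte markers 0 passed, with a median of -0.68. In striatum alone 0 of the 9 striatal and 1 of the 8 cortical markers were lower, beside 21 of 14392 genes. In cortex alone 0 of either list and 1 of the 7 astrocyte markers were lower, beside 80 of 14392 genes. At these shares a count of 0 does not set a list apart. These counts were not repeated without the library that stood apart. The part of cell composition in the values of Polb and Parp1 was not tested, and in bulk tissue fewer cells of a type and less RNA per cell cannot be told apart.

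**Figure D1:**
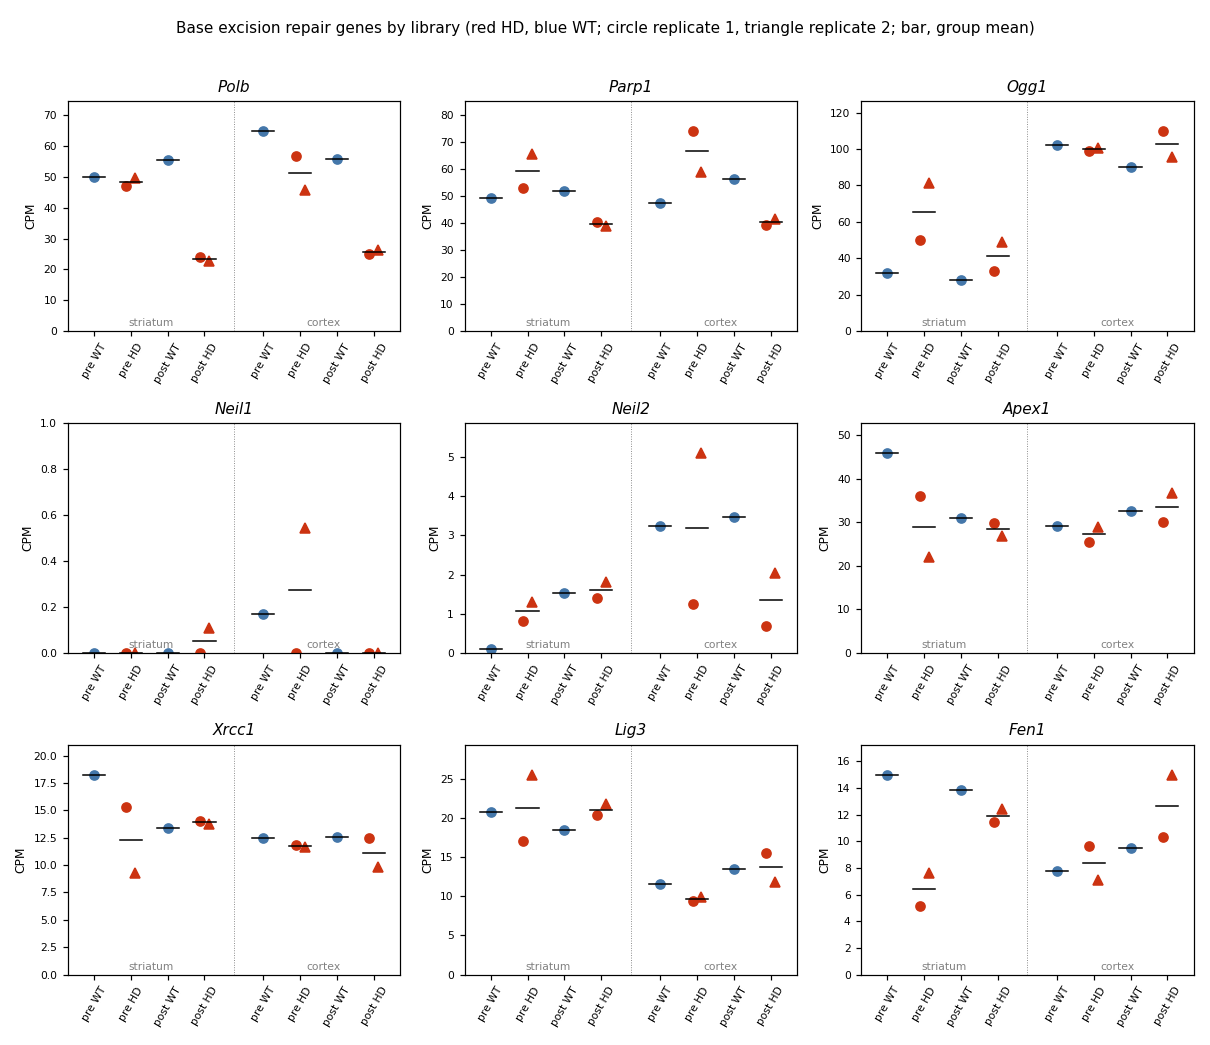
Level of each of the 9 genes in every library, in CPM on a linear axis from 0, for striatum (left of the dotted line) and cortex (right), with HD in red, WT in blue, replicate 1 as circles, replicate 2 as triangles and bars at group means. Polb in the 4 post-symptomatic HD libraries sits between 22.9 and 26.2 CPM, below the other 8 libraries, a gap that Apex1, Xrcc1 and Lig3 do not show.

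For Ogg1, Apex1, Xrcc1, Lig3 and Fen1, the 95% intervals of the change after onset in HD mice lay above the value of Polb. These intervals are of the fit of both regions, and Neil2 and Neil1 had too few counts to say. Polb was chosen for its low value here, and its own interval, -1.29 to -0.73, overlaps that of Ogg1 (-0.78 to 0.17). In striatum alone the Ogg1 interval, -1.27 to -0.024, held the -1.01 of Polb. Ogg1, Apex1, Lig3 and Fen1 also share 3′ exon sequence with an opposite-strand gene, and reads of these pairs cannot be told apart. The difference between genes was not tested. In HD mice after against before onset, 6 of the other 7 genes had enough counts to be tested, and 0 of the 6 passed an adjusted p of 0.05 (edgeR quasi-likelihood test adjusted for region; 1 had an unadjusted p under 0.05). Over all genes tested, 900 of 13944 passed, which is 6.45%, a share at which 0 of 6 does not set these genes apart. Of the 6 genes, 4 had positive and 2 negative values. The median log2 fold change of the 8 measured genes was -0.12, against 0.0023 over all genes. It includes Polb and Parp1, chosen for low values in this contrast, so no conclusion about the pathway is drawn from it. Without the library that stood apart 0 of the 6 passed and 1518 of all genes did.

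Among the glycosylases, which start the pathway, Ogg1 removes oxidized guanine. In striatum it was at 33.0 and 49.2 CPM after onset and at 49.8 and 81.5 CPM before onset, so the ranges came within 1 CPM of each other. In cortex it was at 110 and 95.8 CPM after and 99.0 and 101 CPM before onset, where the ranges overlapped. The log2 fold change for the regions together was -0.30 (SE 0.21, adjusted p = 0.445 by edgeR), with -0.65 in striatum (adjusted p = 0.368) and 0.032 in cortex (adjusted p = 0.979). For the regions together the value was -0.070 without the library that stood apart. The striatal value rested on that library. Without it the value was -0.27 (adjusted p = 0.570), and without the other library of that group it was -0.97 (adjusted p = 0.0158).

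The other glycosylases of the set, Neil1 and Neil2, act on oxidized pyrimidines and were near the limit of detection. Neil1 had 0 counts in 9 libraries and at most 5 counts, in the second library of pre-symptomatic HD cortex, and could not be tested. A count of 0 allows up to 3 counts, or 0.252 to 0.327 CPM of the totals of these 9 libraries, a limit that covers counting error only. Neil2 had 1 to 47 counts, and its log2 fold change of -0.35 after against before onset had a 95% interval from -1.83 to 1.13 (adjusted p = 0.803). That interval holds the -1.01 of Polb, so a change of that size in Neil2 can be neither shown nor excluded here. Neil2 counts in HD cortex were 12 and 47 before onset and 8 and 23 after it.

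Apex1, the endonuclease that opens the backbone, was at 29.9 and 26.8 CPM in striatum and 30.2 and 36.7 CPM in cortex after onset. Before onset it was at 36.0 and 22.1 CPM in striatum and 25.6 and 29.0 CPM in cortex. The log2 fold change was 0.15, with a 95% interval from -0.24 to 0.53 (adjusted p = 0.673 by edgeR), an interval that does not reach the value of Polb. Without the library that stood apart it was 0.048 (adjusted p = 0.903). Its striatal ranges overlapped, and both cortical libraries after onset lay above those before it.

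Xrcc1, the scaffold to which Polb and Lig3 bind, was at 14.1 and 13.8 CPM in striatum after onset and at 15.3 and 9.26 CPM before. In cortex it was at 12.5 and 9.80 CPM after and at 11.8 and 11.6 CPM before. Groups overlapped in both regions, and the log2 fold change was 0.067, with an interval from -0.39 to 0.53 (adjusted p = 0.887), and -0.089 without the library that stood apart. Lig3, the ligase that closes the nick, was at 20.3 and 21.7 CPM in striatum after onset and at 17.0 and 25.5 CPM before. In cortex Lig3 was at 15.6 and 11.8 CPM after and at 9.32 and 9.90 CPM before, with no overlap. For striatum and cortex together its log2 fold change was 0.25, with an interval from -0.20 to 0.70 (adjusted p = 0.511), and 0.44 without that library (adjusted p = 0.184). For Apex1, Xrcc1 and Lig3 the lower bounds of these intervals stayed above the -1.01 of Polb. The difference between genes was not itself tested.

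Fen1, the flap endonuclease of long-patch repair, had values in the direction opposite to Polb. In striatum it was at 11.5 and 12.4 CPM after onset and at 5.15 and 7.64 CPM before. In cortex it was at 10.3 and 15.0 CPM after and at 9.64 and 7.07 CPM before. The groups did not overlap in either region. The log2 fold change was 0.76, with a 95% interval from 0.23 to 1.28, and did not pass the threshold by edgeR (adjusted p = 0.0922). DESeq2 gave an adjusted p of 0.0455, and the 16 alternatives ranged from 0.0455 to 0.251. Without the library that stood apart the value was 0.84 (adjusted p = 0.0645). Fen1 had 44 to 170 counts per library, and WT striatum, at 13.8 CPM at 13 weeks and 15.0 CPM at 8 weeks, lay above the HD striatum of both ages. Reads of Fen1 and of its antisense partner Gm10143 cannot be told apart here.

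HD groups that did not overlap in either region were compared as a count. Polb and Parp1 were lower after onset in every pairing of libraries within a region, Fen1 was higher, and the other 5 measured genes were not separated in both regions in the same direction. Of all genes tested, 11.3% were lower and 9.35% higher by the same criterion, so a gene separated in this way is not rare in these data. Tested by region, 0 of the 6 genes passed in striatum, where 23 of 14392 genes (0.16%) did and 2 of the 6, Ogg1 and Fen1, had an unadjusted p under 0.05. In cortex 0 of the 6 passed, against 85 of all genes (0.591%), and 0 of the 6 had an unadjusted p under 0.05. The change after onset differed between striatum and cortex for 0 of the 6, and for 0% of all genes (519 genes had an unadjusted p under 0.05, none of them among the 6).

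Against WT littermates of 13 weeks, the intervals of the same 5 genes again lay above the value of Polb. That value was chosen for being low here, and the difference between genes was not tested. The 3′ overlaps with opposite-strand genes apply here too. Of the 6 genes tested 0 passed (edgeR, fit of all 12 libraries; 0 had an unadjusted p under 0.05 and 0 passed by DESeq2), and 1082 of 14706 genes did (7.36%), so that the count is near the share over all genes. The log2 fold changes were 0.34 for Ogg1 (interval -0.28 to 0.97), -0.53 for Neil2 (-2.39 to 1.34), -0.039 for Apex1 (-0.54 to 0.46), -0.055 for Xrcc1 (-0.57 to 0.46), 0.10 for Lig3 (-0.41 to 0.62) and 0.089 for Fen1 (-0.61 to 0.79). Polb was at -1.19, which lay within the interval of Neil2, and Neil1 was not tested. The median of the 8 measured genes was -0.047 and that of all genes 0.015. The first again includes the chosen Polb and Parp1, and no conclusion about the pathway is drawn from it.

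At 8 weeks 0 of the 6 genes passed against WT (0 with an unadjusted p under 0.05), and 309 of 14706 genes did (2.1%). Values lay between -0.60 for Fen1 (adjusted p = 0.453) and 0.57 for Neil2 (adjusted p = 0.830). The value of Fen1 came from striatum, where pre-symptomatic HD libraries held 42.8% of the WT level, whereas in cortex they held 108%. Ogg1 showed the reverse order between regions, with 206% of the WT level in pre-symptomatic HD striatum and 97.5% in cortex. Both striatal values include the library that stood apart, without which the values over both regions were -0.59 for Fen1 and 0.24 for Ogg1. The WT libraries weighed more on Fen1, which was at -0.037 without 8-week WT striatum and at -1.06 without 8-week WT cortex, and Ogg1 was at 0.23 and 0.81. Between WT mice of 13 and 8 weeks 0 of the 6 passed (2 of all genes, 0.0136%), and 0 of the 6 had a change with age that differed between HD and WT (17 of all genes, 0.116%). In these comparisons, too, 0 of the 6 had an unadjusted p under 0.05.

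**Figure D2:**
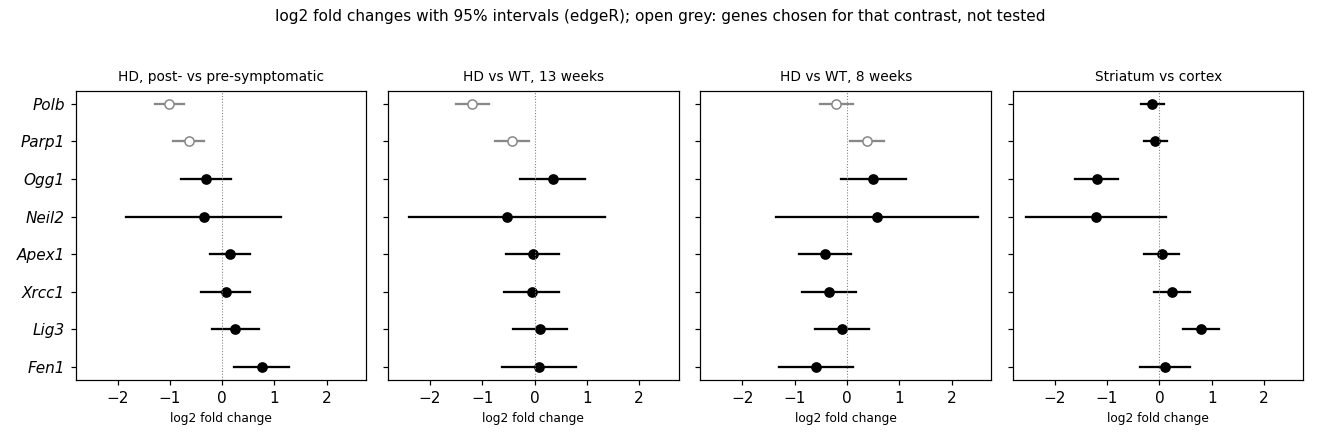
log2 fold changes with 95% intervals of the 8 measured genes in 4 comparisons, after against before onset in HD mice, HD against WT at 13 weeks, HD against WT at 8 weeks, and striatum against cortex. Open grey points mark Polb and Parp1 in the comparisons of age and genotype, where they are given without a test. Ogg1 at -1.20 and Lig3 at 0.80 in the last panel are the values that passed an adjusted p of 0.05.

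Region was not used to choose any gene, so that all 8 measured members were tested between striatum and cortex, and 2 passed (edgeR quasi-likelihood test with genotype and age as a term). Over all genes 3024 of 14706 passed, which is 20.6%. Ogg1 was lower in striatum, where its level ran from 28.3 to 81.5 CPM with a median of 41.1, than in cortex, where it ran from 89.9 to 110 CPM with a median of 99.9. The groups did not overlap over 6 libraries each, and the log2 fold change was -1.20 (SE 0.19, adjusted p = 0.00106). Lig3 was higher in striatum, at 17.0 to 25.5 CPM (median 20.5), than in cortex, at 9.32 to 15.6 CPM (median 11.7), also without overlap, with 0.80 (SE 0.16, adjusted p = 0.00375). Without the library that stood apart the values were -1.37 (adjusted p = 5.9e-06) and 0.68 (adjusted p = 0.00314).

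Polb did not pass between regions, with -0.13 (95% interval -0.35 to 0.078, adjusted p = 0.374), nor did Parp1, with -0.075 (-0.29 to 0.14, adjusted p = 0.644). Neither interval reaches the value of Ogg1. Apex1 (0.045), Xrcc1 (0.24) and Fen1 (0.10) did not pass, nor did Neil2, at -1.21 with an interval from -2.55 to 0.13 (adjusted p = 0.194).

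The genes that passed between regions are also 2 of those with an opposite-strand partner, and the partners gave like values. Camk1, a calcium- and calmodulin-dependent kinase, had a log2 fold change of -1.23 between striatum and cortex (SE 0.18, adjusted p = 6.5e-04), against the -1.20 of Ogg1. Counts of Ogg1 were 0.755 to 0.862 times those of Camk1 in the 12 libraries, and Pearson's r of their log2 CPM was 0.997 over these 12 libraries, a description of points that share groups and depth. Rffl, a RING finger ubiquitin ligase, had 1.05 (SE 0.21, adjusted p = 0.00349) against the 0.80 of Lig3, a count ratio of 1.37 to 2.34 and an r of 0.961. The near-constant ratio of Ogg1 to Camk1 also held in pre-symptomatic HD striatum, where Camk1 was at 57.8 and 96.1 CPM and Ogg1 at 49.8 and 81.5 CPM. Whether these counts come from Ogg1 and Lig3, from their partners or from both cannot be told apart here. For Apex1 and Tmem55b the count ratio ran from 0.257 to 0.455, with an r of 0.43.

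**Figure D3:**
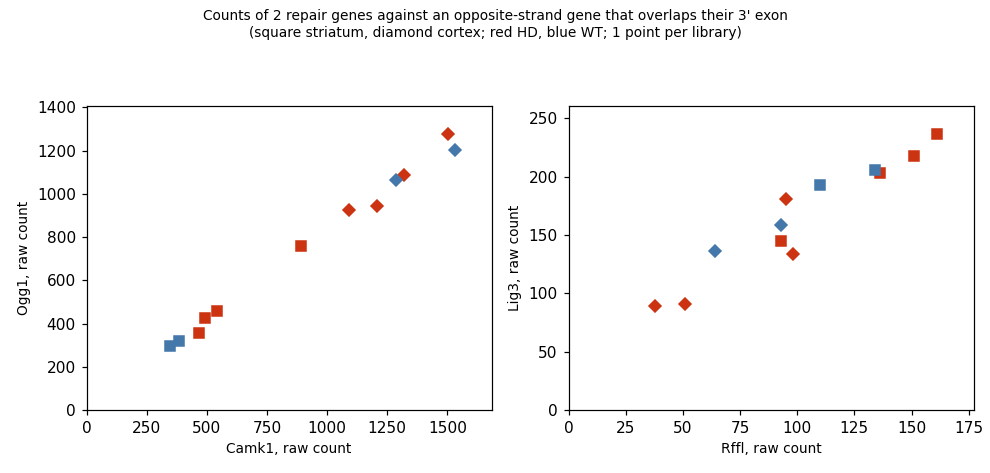
Raw counts of Ogg1 against Camk1 (left) and of Lig3 against Rffl (right), 1 point per library, with squares for striatum, diamonds for cortex, red for HD and blue for WT. Ogg1 follows Camk1 along a line in all 12 libraries, with count ratios between 0.755 and 0.862.

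A further 30 genes of base excision repair, spanning other glycosylases, end-processing enzymes, other poly(ADP-ribose) enzymes, long-patch polymerases and ligases, and enzymes of the nucleotide pool, were examined as a list. After against before onset in HD mice, 26 were tested and 0 passed (edgeR; 1, Dut, had an unadjusted p under 0.05, and 0 passed by DESeq2), beside 6.45% of all genes. Of the 26, 19 had positive and 7 negative values, with a median of 0.15, beside 7014 positive and 6930 negative values and a median of 0.0023 over all genes. Tdg, Neil3, Adprhl2 and Pold4 had too few counts. Against WT at 13 weeks, 27 were tested and 1 passed, beside 7.36% of all genes. It was Rfc1, the large subunit of the clamp loader that places PCNA on DNA.

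Rfc1 was higher in HD mice of both ages. It was at 98.6 and 69.9 CPM in post-symptomatic HD striatum and 75.0 and 62.6 CPM in post-symptomatic HD cortex, and at 78.7 and 72.8 CPM in striatum and 63.2 and 71.9 CPM in cortex before onset. WT libraries lay at 50.4 and 41.9 CPM in striatum and 43.3 and 43.5 CPM in cortex at 13 and 8 weeks, all below the 8 HD libraries. By edgeR the log2 fold change was 0.71 at 13 weeks (SE 0.17, adjusted p = 0.0255) and 0.74 at 8 weeks (SE 0.17, adjusted p = 0.0448). It was 0.10 after against before onset (adjusted p = 0.710). At 8 weeks Rfc1 was the 1 of 27 listed genes that passed, beside 2.1% of all genes. Of those 309 genes, 287 were higher in HD mice. The 8-week call of Rfc1 was not followed through the alternatives. At 13 weeks 0 genes of the list passed with sex as a term or with a mean for each of the 8 groups. The same count was 0 without the first library of post-symptomatic HD striatum, the first of post-symptomatic HD cortex, or either WT library of 13 weeks, and 3 without the library that stood apart.

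Lig1, the ligase of long-patch repair and replication, had 0.66 against WT at 13 weeks (SE 0.23, adjusted p = 0.0986) and 0.33 after against before onset (adjusted p = 0.269). Pcna, the sliding clamp, had 0.15 (adjusted p = 0.803) and 0.37 (adjusted p = 0.374). Parp2, the closest relative of Parp1 in this response, had -0.15 (adjusted p = 0.759) and -0.12 (adjusted p = 0.779), against the -0.43 and -0.64 of Parp1. Ung, the glycosylase that removes uracil, had -0.51 (adjusted p = 0.263) and -0.45 (adjusted p = 0.287), at 5.13 to 6.62 CPM in post-symptomatic HD libraries and 6.46 to 9.35 CPM in the other 8. None of these 4 passed. Between striatum and cortex 1 of the 27 genes passed, Pold2, a subunit of polymerase delta, with 0.61 (SE 0.20, adjusted p = 0.0437), beside 20.6% of all genes.

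**Figure D4:**
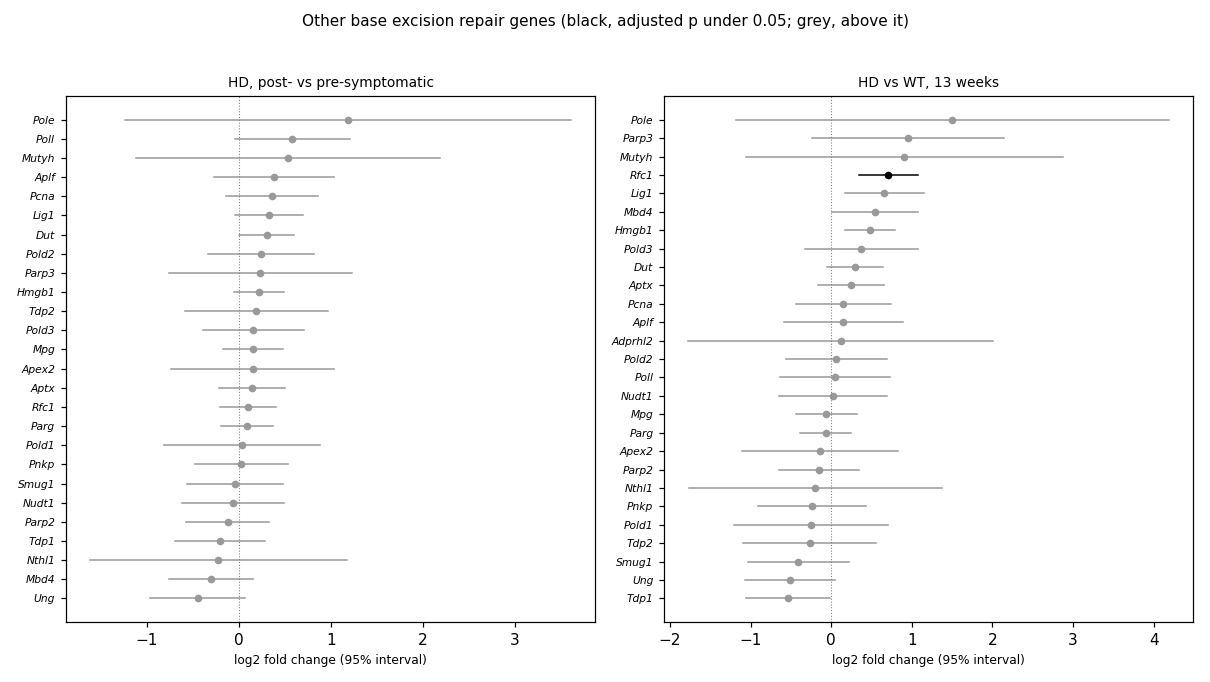
log2 fold changes with 95% intervals of the other genes of base excision repair, after against before onset in HD mice (26 genes) and HD against WT at 13 weeks (27 genes), ordered by value. Rfc1 at 0.71 is drawn in black as the 1 gene with an adjusted p under 0.05.

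The 5 genes whose levels were most like those of Polb were not members of the pathway. This ranking reuses the low levels in post-symptomatic HD libraries by which Polb was chosen, and genes low in the same libraries rank high. With 5 places among 10778 genes, the absence of members says nothing about the pathway. Likeness was Pearson's r of log2 CPM over the 12 libraries after each region's mean was removed, among 10778 genes with a mean of at least 5 CPM. The 5 highest were Grm4, a metabotropic glutamate receptor (r = 0.989), Rgs8, a regulator of G-protein signalling (0.981), Gabrd, the delta subunit of the GABA-A receptor (0.973), Copg1, a coat protein of transport vesicles (0.972), and Cfl1, which severs actin filaments (0.971). Grm4 was at 44.7 and 37.4 CPM in post-symptomatic HD striatum and 159 to 195 CPM in the other striatal libraries. In cortex Grm4 was at 10.9 and 13.4 CPM after onset and 50.7 to 73.2 CPM in the others. Gabrd was at 13.7 to 19.5 CPM in the 4 post-symptomatic HD libraries and at 52.4 to 107 CPM in the other 8. Cfl1 had a shallower difference, at 289 and 303 CPM in post-symptomatic HD striatum against 358 to 366 CPM in the other striatal libraries.

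Parp1 had an r of 0.764 with Polb, a value that restates the choice of both genes for low levels in the same 4 libraries. Of the members not chosen in this way, Xrcc1 had 0.11, Neil2 0.047, Ogg1 -0.029, Lig3 -0.36 and Fen1 -0.37, and Apex1 was at -0.00019. For each of these 6, between 45.4% and 74.0% of genes were more like Polb. The points share libraries, groups and depth, the 4 post-symptomatic HD libraries set most of the spread of Polb, and no p is given.

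**Figure D5:**
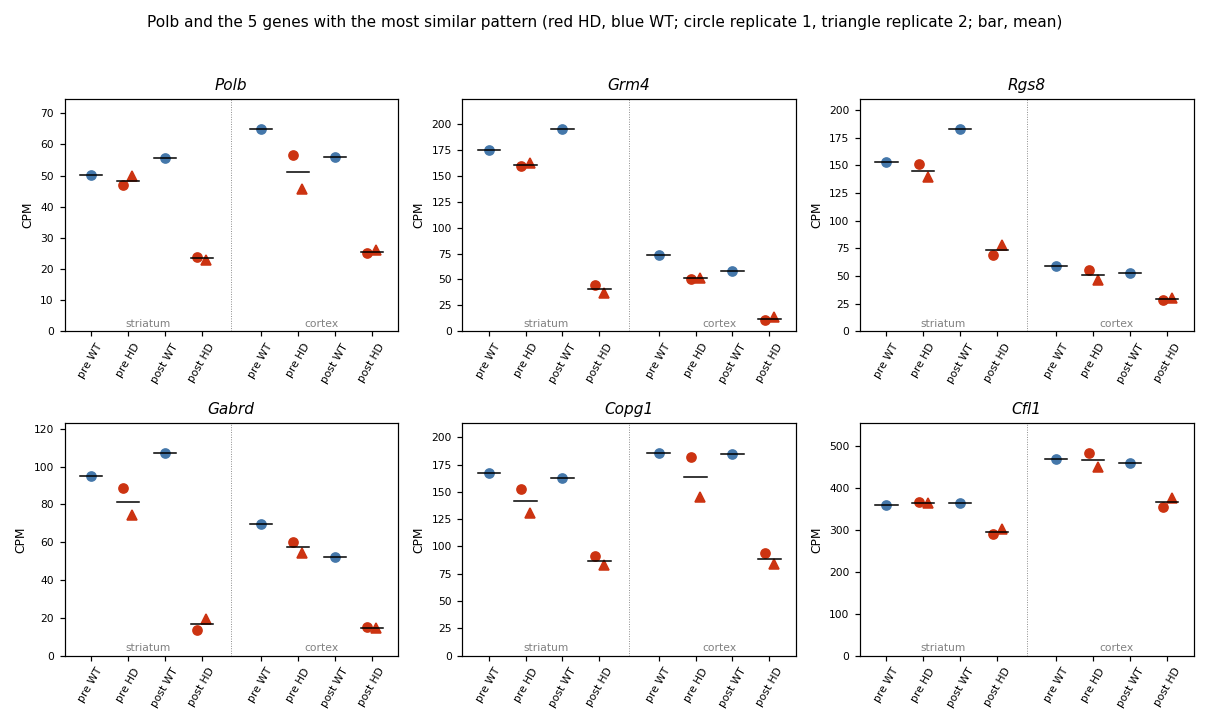
Levels in CPM of Polb and of the 5 genes most like it in every library, for striatum (left of the dotted line) and cortex (right), with HD in red, WT in blue, circles for replicate 1, triangles for replicate 2 and bars at group means. In each panel the post-symptomatic HD libraries lie lowest within their region, with Polb at 22.9 to 26.2 CPM.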

How the data were processed

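The 12 RNAseq libraries of R6/2 HD and WT littermate brain were made from total RNA with the Lexogen QuantSeq 3′ kit. The authors deposited raw counts per gene symbol for each library. The submitters' processing notes name Bowtie2, bedtools and mm10. Their versions, the gene annotation, the counting rule and its use of strand are not given in the sources used here. Of 23282 gene rows, 4306 were at 0 throughout and 44 carried a symbol already listed. Identical libraries were not found (0 pairs), and chi-square per degree of freedom between HD replicates was 7.23 to 78.2, above sampling noise. Counts are of reads without molecular identifiers, so precision from depth covers counting error only.

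Testing used edgeR 4.0.16 in R 4.3.3, with TMM scaling, filterByExpr (10 counts), the robust quasi-likelihood test and Benjamini-Hochberg adjustment over all genes tested, at a threshold of 0.05. HD ages were compared over 8 libraries with region as a term or by group means, and HD with WT over all 12. Alternatives were DESeq2 1.42.0, upper-quartile scaling, scaling without Rn45s, a filter of 1 CPM throughout or none, leaving out each library, a replicate block, voom (limma 3.58.1) with genotype, age and replicate number as a random block, sex as a term, a mean for each of 8 groups, and a threshold of 0.01. Scripts were tested on simulated data.

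The members, the list of other pathway genes and the markers were chosen with earlier results of these data known. Named genes were all members, listed pathway genes with an adjusted p under 0.05 against WT or between HD ages, Lig1, Pcna, Parp2 and Ung, the 5 genes most like Polb, and genes with exons overlapping a member. Dut and Pold2 were named outside this rule as counts of 1, as were Drd2, listed pathway genes with too few counts, and Osgep, after their values were seen. Gene positions are from GENCODE M21 and promoters from RefSeq GRCm38.p6.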

Additional observations from a re-analysis of the deposited data

Results flagged for a closer look

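The following differences between groups go in opposite directions in every library, and none of the differences was tested. Parp1 lay below WT at 13 weeks (log2 fold change -0.431) and above WT at 8 weeks (0.376), in both regions. Ogg1 lay above WT in pre-symptomatic HD striatum (log2 ratio of mean CPM 1.04) and below WT in pre-symptomatic HD cortex (-0.0358); the striatal group holds the library with high oligodendrocyte markers, whose part was not tested. At 13 weeks Fen1 lay below WT in HD striatum (-0.212) and above WT in HD cortex (0.417), and Xrcc1 lay above WT in HD striatum (0.0619) and below WT in HD cortex (-0.171). Each WT level is 1 library, and the values of Ogg1 in cortex and of Xrcc1 in both regions are small.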

How the results depend on the processing

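The count of members that passed was 0 in every alternative for each comparison within HD mice or with WT, except after against before onset by DESeq2, where it was 1 (Fen1), and in striatum, where leaving out 1 library gave 0 to 1 (Ogg1 without the first library of pre-symptomatic HD striatum). It was 2 between regions in all 22 alternatives. Of the other pathway genes, 1 passed at 13 weeks in the reported fit, 2 by DESeq2, 2 with upper-quartile scaling, 0 with sex as a term, 0 with a mean for each of 8 groups, 0 at an adjusted p of 0.01, and 0 to 3 with a library left out. Over all genes the 900 after against before onset became 1680 by DESeq2, 161 at 0.01 and 211 to 1518 with a library left out, the 1082 at 13 weeks became 1813, 294 and 29 to 1834, and the 309 at 8 weeks became 674, 56 and 0 to 444 (130 with a mean for each of 8 groups). By region, the 23 in striatum became 447 by DESeq2, 163 without a filter and 6 at 0.01, and 0 to 1083 with a library left out. The 85 in cortex became 558, 251 and 6, and 45 with upper-quartile scaling, 153 with voom and 0 to 1202. The region difference went from 0 to 17 by DESeq2, 1 without a filter and at most 168, the 2 with WT age to between 0 and 11, the 17 whose change with age differed to between 0 and 231, and the 3024 between regions to 1575 at 0.01.

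The labels do not say that a replicate number marks a shared mouse or batch, although by Xist it followed sex in HD mice. Deviations of same-numbered HD libraries correlated between 0.0024 and 0.19 over the 6 pairs of groups, not above 0.1 in each, so the numbers were not used to pair libraries. With the number as a replicate block, 36 genes passed in striatum, 1030 passed after against before onset and Polb had -1.01, and the block changed no call on a member. At 13 weeks it turned the sign of Apex1 to 0.0059, Xrcc1 to 0.075 and Fen1 to -0.000396, and at 8 weeks that of Neil2 to -0.16, as did sex as a term. DESeq2 turned Apex1 to -0.031 and Lig3 to -0.021 in striatum, and upper-quartile scaling turned Apex1 to 0.014 at 13 weeks. Polb lay between -1.07 and -0.94 after against before onset and between -1.27 and -1.11 at 13 weeks in all alternatives.

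Leaving out 1 library turned the sign of members that had not passed. After against before onset Neil2 ran from -0.66 to 0.41 and Xrcc1 from -0.089 to 0.18. In striatum Apex1 ran from -0.33 to 0.38, Xrcc1 from -0.13 to 0.61 and Lig3 from -0.26 to 0.32. In cortex Ogg1 ran from -0.064 to 0.12, Neil2 from -2.20 to 0.10 and Xrcc1 from -0.26 to 0.071. At 13 weeks Apex1 ran from -0.15 to 0.041, Xrcc1 from -0.14 to 0.031, Lig3 from -0.10 to 0.32 and Fen1 from -0.17 to 0.37, and at 8 weeks Neil2 from -0.35 to 3.72. Between regions Apex1 ran from -0.081 to 0.12 and Fen1 from -0.073 to 0.22. The cause of these changes was not tested.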
